A study of Mus musculus with 12 samples.

Results

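Chemokine ligand genes were followed in cultures of mouse CD4+ T cells. The 10 genes were listed by name (Ccl1, Ccl3, Ccl4, Ccl5, Ccl17, Ccl20, Ccl22, Xcl1, Cxcl3 and Cxcl10), and all 10 were found among the 23991 gene symbols of the deposited expression tables. Cells came from the spleen or lymph nodes of male C57BL/6 mice aged 8 to 10 weeks, were enriched for CD4+ T cells by removing other cells with magnetic beads, and were cultured for 18 hours. The 4 groups of 3 libraries each were Adcy10-/- cells (KO below) in baseline medium with polarizing cytokines, wild-type (WT) cells in the same medium, KO cells in baseline medium and WT cells in baseline medium.

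Soluble adenylyl cyclase, the cAMP-making enzyme, is the product of Adcy10. The labels name no Cre or conditional allele and describe 1 culture recipe for all groups: anti-CD3 on the plate at 10 µg/mL and soluble anti-CD28 at 2 µg/mL, IL-6 at 25 ng/mL, IL-23 and IL-1β at 20 ng/mL each, and blocking antibodies against IL-4 and IFN-γ at 1 µg/mL each. They do not say which of these the baseline medium lacked. The labels also do not say whether libraries of a group came from separate animals, so p-values measure only the spread between these libraries.

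Chemokines are small secreted proteins that direct the movement of white blood cells through receptors on the cell surface. Activated T cells make several of them, among them CCL1, CCL3, CCL4, CCL5 and XCL1, and Th17 cells are a known source of CCL20. CCL17 and CCL22 are best known as products of dendritic cells and macrophages, although activated T and B cells can also make CCL22. CXCL10 is induced by interferons in many cell types, and CXCL3 is chiefly a myeloid and stromal product that draws neutrophils.

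The families are named for their first cysteines. The stretches below are shown because they carry that feature. Each is 36 bases of the coding sequence in the GENCODE M21 transcripts, with the cysteine codons in capitals. In the 6 CC genes shown both codons are adjacent, in both CXC genes 1 codon lies between them, and in Xcl1 there is a single codon.
Ccl1: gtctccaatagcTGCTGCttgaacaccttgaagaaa
Ccl4: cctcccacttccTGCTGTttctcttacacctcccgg
Ccl5: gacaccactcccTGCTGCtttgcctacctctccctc
Ccl17: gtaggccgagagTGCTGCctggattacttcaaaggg
Ccl20: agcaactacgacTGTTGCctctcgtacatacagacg
Ccl22: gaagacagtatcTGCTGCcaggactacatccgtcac
Xcl1: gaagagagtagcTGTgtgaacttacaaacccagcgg
Cxcl3: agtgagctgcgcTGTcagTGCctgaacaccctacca
Cxcl10: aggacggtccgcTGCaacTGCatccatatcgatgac

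Levels were given as FPKM, fragments scaled by transcript length and by the mapped total of the library, which can be compared between genes. Library sums ran between 547870 and 594750 FPKM, and 9778 to 9925 genes reached 1 FPKM. Read totals were not given, and depth relative to the first WT baseline library, read from the steps between low values, was 0.731 to 1.02. Adcy10 was listed at 0 in all 12 libraries, so it checks no genotype label. The 8 CD4 T cell markers found of 9 listed summed to between 1664 and 2077 FPKM. With cytokines Cd5 rose in both genotypes (log2 change 0.34 in KO cells and 0.39 in WT cells, limma adjusted p = 0.0298 and 0.0142), Cd2 rose in WT cells (0.27, adjusted p = 0.0211) and Cd4 fell in KO cells (-0.40, adjusted p = 0.0261). Mean Cd2 also stood higher with cytokines in KO cells, at 395 FPKM against 342 FPKM at baseline. Replicate number 1 stood apart from numbers 2 and 3 on the second principal component (22.6% of the variance). Libraries of the same number shared deviations from their group means within a genotype and, to a varying degree, between genotypes. A fit with the replicate number as a block is therefore given where it changes a call. With the block Cd4 also passed as lower in WT cells (log2 change -0.30, limma adjusted p = 0.0128, without it 0.0804).

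Ccl22 and Ccl4 were the most abundant of the 10 in every group, and Ccl20 the least. In KO cells with cytokines the order of mean FPKM was Ccl4 (78.1), Ccl22 (74.1), Ccl3 (40.2), Xcl1 (12.9), Cxcl10 (10.2), Ccl5 (6.57), Cxcl3 (5.11), Ccl17 (4.73), Ccl1 (1.01) and Ccl20 (0.463). In WT cells with cytokines it was Ccl22 (118), Ccl4 (84.9), Ccl3 (43.7), Xcl1 (16.7), Ccl17 (15.8), Cxcl10 (10.9), Ccl5 (9.09), Cxcl3 (3.86), Ccl1 (0.850) and Ccl20 (0.650). Neighbours in these orders mostly overlapped between libraries. With cytokines, gaps without overlap lay below Ccl3 and below Ccl17 in KO cells, and below Ccl4, Ccl3, Ccl5 and Cxcl3 in WT cells. At baseline Ccl22 led in both genotypes, with means of 142 FPKM in KO cells and 206 FPKM in WT cells. Averaged over the 12 libraries, the Ccl22 level was higher than that of 97.5% of all gene symbols, Ccl4 than 95.1%, Ccl3 than 90.7% and Xcl1 than 86.7%.

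**Figure D1:**
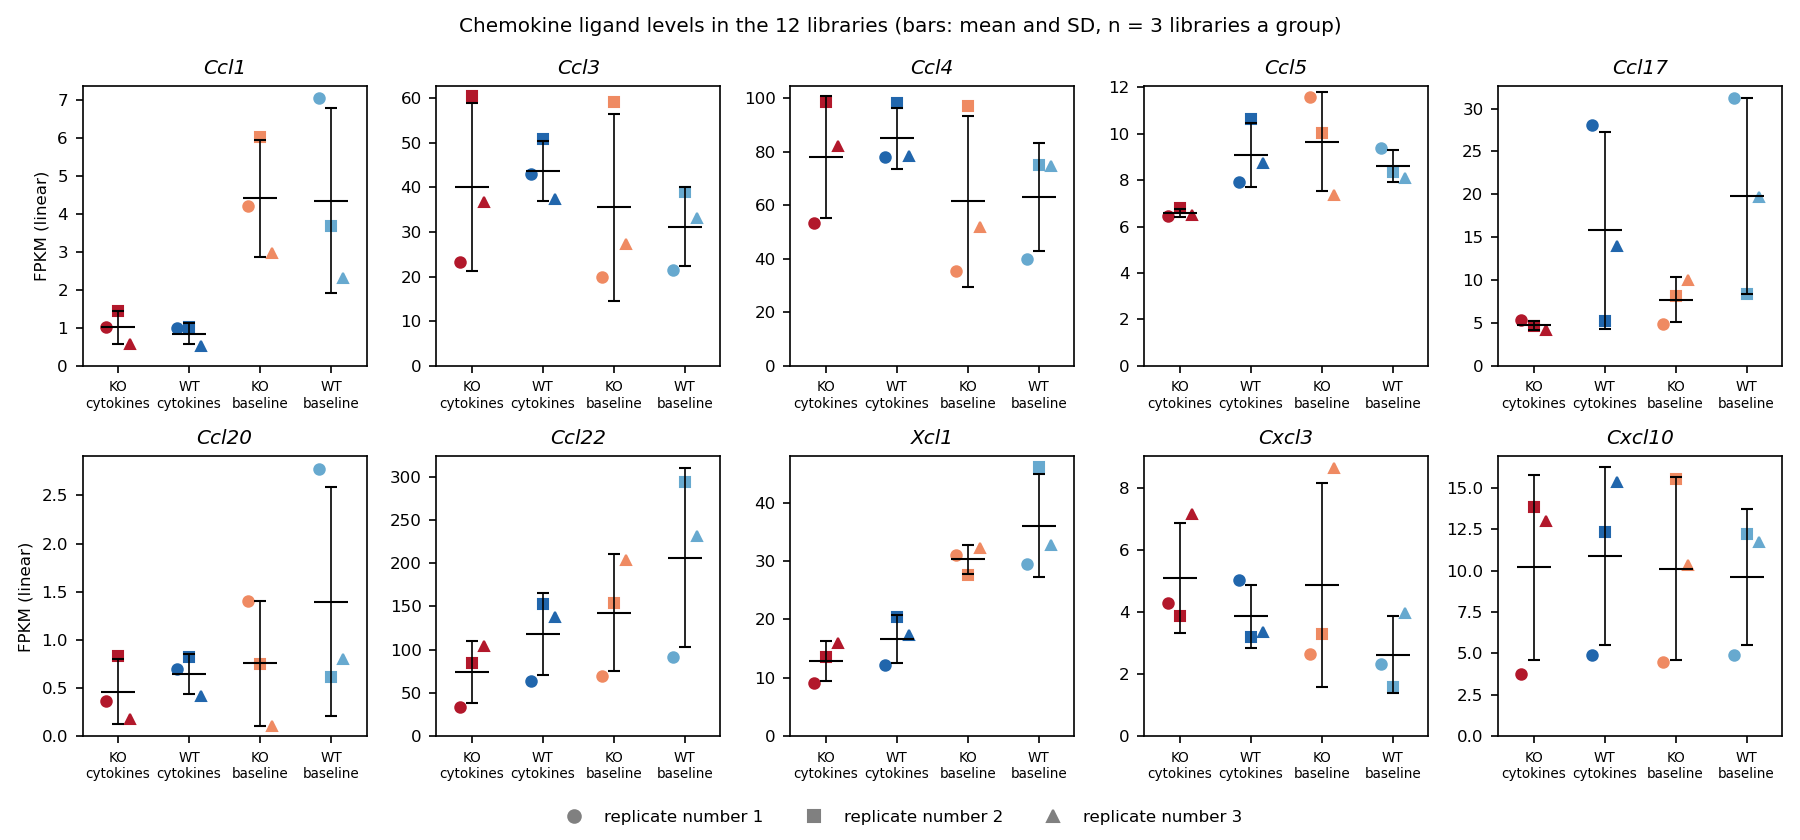
FPKM (linear axis) of each of the 10 chemokine ligand genes in every library, by group, with symbols for the replicate number and bars for the mean and SD (n = 3). Ccl1 and Xcl1 were lower in all 6 libraries with cytokines than in all 6 baseline libraries, while Ccl22 and Cxcl10 were lowest in replicate number 1 of each group.

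The first comparison asked what the polarizing cytokines did to the ligand genes in each genotype. With cytokines, 2 of the 9 tested ligands fell in KO cells and the same 2, Ccl1 and Xcl1, fell in WT cells, and none rose. Of all 10126 genes tested, 4.27% passed in KO cells (2.12% as lower) and 4.93% in WT cells (2.28% as lower), in limma with Benjamini-Hochberg adjustment at 0.05. Genes were tested when they reached 1 FPKM in at least 3 libraries, a filter that Ccl20 missed with 2. The median log2 change of the 9 tested ligands was -0.47 in KO cells and 0.06 in WT cells, beside -0.02 and -0.01 over all tested genes. Both ligand medians are the values of Ccl5. The difference between genotypes in the cytokine response had a median of -0.16 over the 9 ligands, and 0 of them passed for it.

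Ccl1 encodes a ligand of CCR8, a receptor of Th2-type and regulatory T cells. Its level was 1.02, 1.44 and 0.571 FPKM in the 3 KO libraries with cytokines, against 4.22, 6.04 and 2.98 FPKM in those at baseline. In WT cells it was 1.01, 1.02 and 0.522 FPKM with cytokines, against 7.05, 3.68 and 2.31 FPKM at baseline. The groups did not overlap in either genotype, and the mean was 4.37-fold lower in KO cells and 5.11-fold lower in WT cells. On the log2(FPKM + 1) scale, which understates changes near 1 FPKM, Ccl1 fell by 1.41 in KO cells (SE 0.30, limma adjusted p = 0.0230) and by 1.45 in WT cells (SE 0.30, adjusted p = 0.0192). Both calls were lost with no filter on low values (adjusted p = 0.0581 in KO cells and 0.0523 in WT cells), and the WT call also with only the groups compared in the fit (0.0535). Leaving out 1 library ended the KO call for KO cytokine library 1 (0.0728) or 3 (0.0900) and KO baseline library 1 (0.0768) or 2 (0.0718). It ended the WT call for WT cytokine library 1 (0.0519) or 3 (0.0659) and WT baseline library 2 (0.0697). With the replicate block the adjusted p was 0.00181 in KO cells and 0.00167 in WT cells.

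Xcl1 encodes lymphotactin, which draws the dendritic cells that carry XCR1 and cross-present antigen. It stood at 9.18, 13.6 and 15.9 FPKM in KO libraries with cytokines, against 31.1, 27.5 and 32.3 FPKM at baseline. In WT libraries it stood at 12.2, 20.5 and 17.4 FPKM with cytokines, against 29.5, 46.0 and 32.7 FPKM at baseline. Every library with cytokines lay below every baseline library. The mean was 2.35-fold lower in KO cells and 2.16-fold lower in WT cells, with log2 changes of -1.20 (SE 0.22, limma adjusted p = 0.0104) and -1.07 (SE 0.22, adjusted p = 0.0172). The KO call held in every alternative tried, while the WT call was lost without WT cytokine library 1 (adjusted p = 0.0662) or WT baseline library 2 (0.0858). Xcl1 and Adcy10 both lie on chromosome 1, with 6 protein-coding genes between them in the RefSeq order of GRCm38.p6.

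Ccl22, with Ccl17 a ligand of CCR4, was lower with cytokines in every number pair, and passed with the block but not without it. It was at 33.9, 84.5 and 104 FPKM in KO libraries 1, 2 and 3 with cytokines, against 69.8, 154 and 203 FPKM in KO libraries 1, 2 and 3 at baseline. In WT libraries 1, 2 and 3 it was at 63.7, 153 and 138 FPKM with cytokines, against 92.2, 294 and 232 FPKM at baseline. Within each group library 1 was the lowest, and the groups overlapped. The log2 change was -0.95 in KO cells (SE 0.55, limma adjusted p = 0.494) and -0.74 in WT cells (SE 0.55, adjusted p = 0.529). With the replicate block the SE was 0.13 and the adjusted p was 0.00153 in KO cells and 0.00474 in WT cells. Without KO cytokine library 1 the KO change was -0.47, and it was -0.63 without KO baseline library 3. The WT change was -0.35 without WT cytokine library 1, -0.40 without WT baseline library 2 and -1.24 without WT baseline library 1. The dendritic cell markers were mixed. With cytokines the means of Batf3, Itgax and Flt3 were higher in both genotypes, and that of Zbtb46 was lower. Cd83 and Fscn1 were, like Ccl22, lower with cytokines in all 6 number pairs. With the block their log2 changes were -0.85 and -0.43 in KO cells (limma adjusted p = 0.00432 and 0.0400) and -0.84 and -0.52 in WT cells (0.00447 and 0.0153), and their part in the Ccl22 values was not tested.

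With the block, 4 of the 9 tested ligands fell in KO cells (Ccl1, Ccl5, Ccl22 and Xcl1; 10.7% of all tested genes passed, 5.98% as lower). In WT cells 3 fell (Ccl1, Ccl22 and Xcl1; 14.8% of all tested genes, 7.43% as lower).

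**Figure D2:**
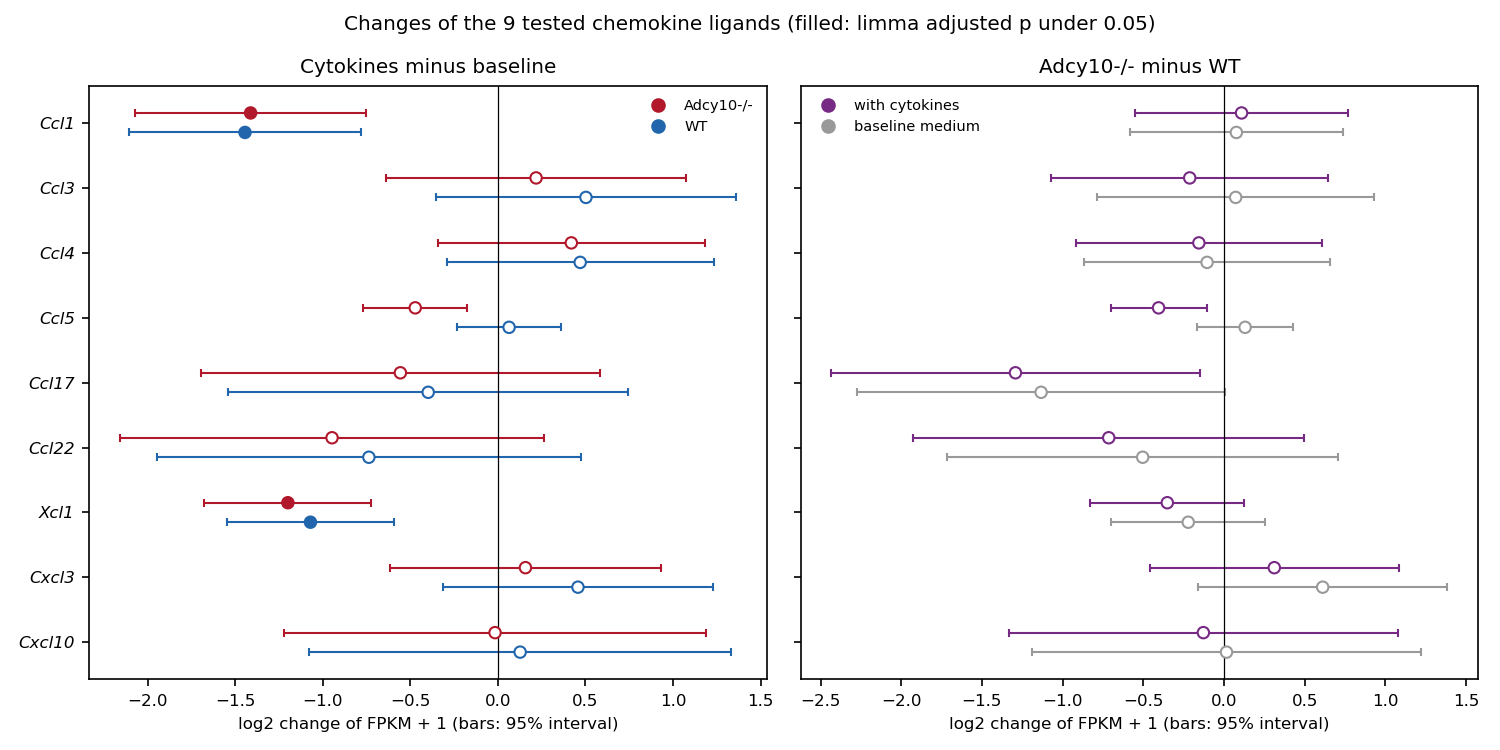
Log2 changes of FPKM + 1 for the 9 tested ligands with 95% intervals, cytokines minus baseline at left (KO above WT) and Adcy10-/- minus WT at right (with cytokines above baseline). Filled points passed limma at an adjusted p of 0.05 without the block; these are Ccl1 and Xcl1 in both genotypes at left.

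The sequences before the start sites of the 3 ligands that fell in both genotypes in the blocked fit, Ccl1, Xcl1 and Ccl22, are shown with that of Cxcl10, the interferon-inducible ligand whose level did not pass. They are the 250 bases upstream in RefSeq on GRCm38.p6, on the strand of the gene. Capitals mark matches on either strand to the kappaB consensus, an interferon-stimulated response element (GAAA repeated with 2 bases between), a GAS element (TTCNNNGAA), an AP-1 site (TGANTCA) or the NFAT core (GGAAAA).
Ccl1, chr11:82179813-82180062, minus strand: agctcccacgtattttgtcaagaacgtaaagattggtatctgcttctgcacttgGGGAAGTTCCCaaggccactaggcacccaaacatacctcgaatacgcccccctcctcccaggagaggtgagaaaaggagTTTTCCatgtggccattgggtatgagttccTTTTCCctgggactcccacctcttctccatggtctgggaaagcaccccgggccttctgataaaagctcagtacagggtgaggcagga
Xcl1, chr1:164935523-164935772, minus strand: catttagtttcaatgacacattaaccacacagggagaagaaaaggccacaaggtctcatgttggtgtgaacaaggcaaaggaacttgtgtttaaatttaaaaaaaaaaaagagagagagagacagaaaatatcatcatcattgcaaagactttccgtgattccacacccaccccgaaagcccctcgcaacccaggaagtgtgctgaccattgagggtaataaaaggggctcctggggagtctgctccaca
Ccl22, chr8:94745434-94745683, plus strand: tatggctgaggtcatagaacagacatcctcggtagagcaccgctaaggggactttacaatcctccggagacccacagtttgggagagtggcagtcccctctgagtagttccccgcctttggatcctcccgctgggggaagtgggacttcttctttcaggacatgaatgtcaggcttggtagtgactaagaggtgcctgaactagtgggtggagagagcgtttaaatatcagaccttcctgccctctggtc
Cxcl10, chr5:92348890-92349139, minus strand: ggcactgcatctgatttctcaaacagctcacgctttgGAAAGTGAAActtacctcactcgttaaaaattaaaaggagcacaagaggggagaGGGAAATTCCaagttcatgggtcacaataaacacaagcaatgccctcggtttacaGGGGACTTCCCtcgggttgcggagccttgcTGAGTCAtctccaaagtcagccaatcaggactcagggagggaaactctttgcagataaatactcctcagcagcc

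The Ccl1 window holds 2 overlapping kappaB matches and 2 NFAT cores, and the Cxcl10 window 3 kappaB matches (2 of them overlapping), 1 response element and 1 AP-1 site. Of 32851 mouse promoters of the same length, 7.25% hold the kappaB consensus, 2.98% the response element, 7.02% the GAS element, 6.75% the AP-1 site and 20.4% the NFAT core. The windows of Xcl1 and Ccl22 hold none of these letters. A match describes letters, and its absence covers only this window.

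Ccl3 and Ccl4, neighbours on chromosome 11, encode inflammatory CC chemokines, and the product of Ccl3 binds CCR1. Ccl3 was at 23.3, 60.4 and 36.8 FPKM in KO libraries 1, 2 and 3 with cytokines, against 20.0, 59.2 and 27.3 FPKM at baseline. WT libraries had 42.9, 50.8 and 37.4 FPKM with cytokines, against 21.6, 39.0 and 33.1 FPKM at baseline. Every number pair was higher with cytokines, and the groups overlapped. The log2 change was 0.22 in KO cells (limma adjusted p = 0.899) and 0.50 in WT cells (0.547). WT passed only with a block that pairs libraries of the same genotype and number (adjusted p = 0.0345), an alternative chosen after the data were seen.

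Ccl4 was at 53.5, 98.6 and 82.1 FPKM in KO libraries with cytokines, against 35.4, 97.1 and 51.8 FPKM at baseline. WT libraries had 78.1, 98.1 and 78.5 FPKM with cytokines, against 39.8, 74.8 and 74.8 FPKM at baseline. All 6 number pairs were higher with cytokines, and in WT cells the groups did not overlap. Neither change passed, with log2 values of 0.42 in KO cells (SE 0.35, limma adjusted p = 0.688) and 0.47 in WT cells (SE 0.35, adjusted p = 0.525). Without baseline library 1 they were 0.092 in KO cells and 0.17 in WT cells, and without KO baseline library 2 the KO value was 0.81. Ccl1, Ccl5 and Xcl1 in KO cells and Ccl1, Ccl4 and Xcl1 in WT cells were thus the ligands whose media did not overlap, 3 of 9 in each genotype, beside 21.6% and 20.8% of all tested genes.

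Ccl5 (RANTES), a late product of activated T cells that binds CCR1 and CCR3, had 6.46, 6.79 and 6.48 FPKM in KO libraries with cytokines, against 11.6, 10.0 and 7.37 FPKM at baseline. In WT libraries it had 7.91, 10.6 and 8.74 FPKM with cytokines, against 9.39, 8.34 and 8.10 FPKM at baseline. The KO groups did not overlap and the WT groups did. The log2 change was -0.47 in KO cells (SE 0.14, limma adjusted p = 0.0831) and 0.06 in WT cells (SE 0.14, adjusted p = 0.860). The KO change passed with the block (adjusted p = 0.0327) and without KO baseline library 3 (adjusted p = 0.0172). The test of the difference between genotypes gave -0.54 (95% interval -0.96 to -0.11), with an unadjusted p of 0.0171 that did not survive adjustment (adjusted p = 1.00).

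Ccl17, Cxcl3 and Cxcl10 did not pass in either genotype. Cxcl10, a ligand of CXCR3, was at 3.76, 13.8 and 13.0 FPKM in KO libraries 1, 2 and 3 with cytokines, against 4.46, 15.5 and 10.3 FPKM at baseline. In WT libraries it was at 4.90, 12.3 and 15.4 FPKM with cytokines, against 4.89, 12.2 and 11.7 FPKM at baseline. Library 1 was the lowest in all 4 groups, and the media overlapped. The log2 change was -0.02 in KO cells (95% interval -1.22 to 1.19) and 0.13 in WT cells (-1.08 to 1.33), and the KO sign turned with median-ratio scaling.

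Cxcl3 had 4.30, 3.88 and 7.14 FPKM in KO libraries with cytokines, against 2.66, 3.30 and 8.64 FPKM at baseline. In WT libraries it had 5.02, 3.18 and 3.37 FPKM with cytokines, against 2.32, 1.57 and 3.98 FPKM at baseline. The groups overlapped, with log2 changes of 0.16 in KO cells (limma adjusted p = 0.928) and 0.46 in WT cells (0.542). KO library 3 was the highest of its group in both media.

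Ccl20, the ligand of CCR6 and a Th17 product, was low and reached 1 FPKM in only 2 of the 12 libraries. It had 0.369, 0.835 and 0.185 FPKM in KO libraries with cytokines, against 1.41, 0.753 and 0.111 FPKM at baseline. In WT libraries it had 0.699, 0.827 and 0.424 FPKM with cytokines, against 2.77, 0.619 and 0.807 FPKM at baseline. All 12 values lay within 0.1 of whole numbers of a common step, the value of 1 fragment if the steps are fragments. In KO libraries 1, 2 and 3 these were 6, 14 and 3 steps with cytokines, against 24, 13 and 2 at baseline, and in WT libraries 9, 15 and 6 with cytokines, against 49, 10 and 11 at baseline. The media overlapped in both genotypes. With no filter on low values the log2 change was -0.22 in KO cells (SE 0.35, limma adjusted p = 0.914) and -0.44 in WT cells (SE 0.35, adjusted p = 0.629).

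The second comparison asked whether loss of Adcy10 altered the ligand genes. None of the 9 passed between genotypes in either medium, and neither did any of the 10126 tested genes (0.0% in both media with limma, and 0.0% with the replicate block). In limma without the block, 2 ligands stood at an unadjusted p under 0.05 with cytokines, Ccl5 and Ccl17, beside 202 of all tested genes (1.99%). At baseline 0 ligands did, beside 118 genes (1.17%).

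Ccl17 had the largest log2 difference between genotypes among the 9 tested ligands in both media. With cytokines it was at 5.32, 4.63 and 4.23 FPKM in KO libraries 1, 2 and 3, against 28.1, 5.27 and 14.0 FPKM in WT libraries. At baseline it was at 4.85, 8.20 and 10.0 FPKM in KO libraries, against 31.3, 8.40 and 19.6 FPKM in WT libraries. KO was lower in every number pair, by little in number 2, and the groups overlapped in both media. The log2 difference was -1.29 with cytokines (SE 0.52, unadjusted p = 0.0299, limma adjusted p = 1.00) and -1.13 at baseline (SE 0.52, unadjusted p = 0.0514, adjusted p = 1.00). Without WT cytokine library 1 the difference with cytokines was -0.76, and without WT baseline library 1 the baseline difference was -0.73. With all 4 number 1 libraries left out the differences were -0.84 with cytokines and -0.47 at baseline. Between media, Ccl17 changed by -0.56 in KO cells (limma adjusted p = 0.733) and -0.40 in WT cells (0.747).

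For Ccl5 with cytokines, the 3 KO libraries lay below the 3 WT libraries in the values above, with a log2 difference of -0.41 (SE 0.14, unadjusted p = 0.0121, limma adjusted p = 1.00). This was the only ligand whose genotypes did not overlap with cytokines (5.08% of all tested genes did not), and at baseline there was none (4.99% of all tested genes). Ccl22 was lower in KO in all 6 number pairs, with log2 differences of -0.71 with cytokines (95% interval -1.92 to 0.50) and -0.50 at baseline (-1.71 to 0.71). With the replicate block the SE of the difference with cytokines was 0.13 in place of 0.55 (unadjusted p = 0.000185, limma adjusted p = 0.375). Without KO library 1 of the medium these Ccl22 differences were -0.23 with cytokines and -0.060 at baseline, and without WT library 1 they were -1.11 with cytokines and -1.001 at baseline. Xcl1 differed by -0.35 with cytokines (-0.83 to 0.13) and -0.22 at baseline (-0.70 to 0.26). Cxcl3 differed by 0.31 with cytokines (-0.46 to 1.08) and 0.61 at baseline (-0.16 to 1.38). The differences of Ccl1, Ccl3, Ccl4 and Cxcl10 lay between -0.21 and 0.11 with cytokines and between -0.10 and 0.08 at baseline. The response to cytokines did not pass as different between genotypes for any ligand or any tested gene (0.0% in limma). At an unadjusted p under 0.05 stood 112 genes (1.11%), among them 1 ligand, Ccl5.

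Markers of cells other than CD4 T cells were read beside these ligands. In bulk RNA, fewer cells of a type and less RNA per cell cannot be told apart. The 9 B cell markers summed to 6.03, 26.0 and 30.8 FPKM in KO libraries 1, 2 and 3 with cytokines, 3.09, 41.9 and 36.4 in WT libraries with cytokines, 8.25, 32.4 and 34.9 in KO libraries at baseline, and 2.23, 55.6 and 39.0 in WT libraries at baseline. Like Ccl22 and Cxcl10, the sum was lowest in library 1 of every group. Of the 8 B cell markers tested, 0 passed between media in either genotype in limma, and 0 stood at an unadjusted p under 0.05. The part of these cells in the Ccl22 and Cxcl10 values was not tested.

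The 11 dendritic cell markers found, leaving out Ccl17, summed to 9.49 to 23.6 FPKM in KO libraries with cytokines, 14.9 to 28.8 in WT libraries with cytokines, 14.8 to 32.0 in KO libraries at baseline and 17.6 to 40.9 in WT libraries at baseline. Most of each sum came from Cd83 (4.03 to 25.2 FPKM), Fscn1 (2.54 to 11.4) and Batf3 (1.29 to 6.62). Zbtb46 (0.260 to 1.66 FPKM), Itgax (0.165 to 0.896) and Flt3 (0.0674 to 0.452) were above 0 in all 12 libraries. Of the 4 tested, 0 passed between media without the block, and with it Cd83 and Fscn1 fell in both genotypes and Batf3 rose in WT cells (log2 change 0.73, limma adjusted p = 0.0270). The defining Siglech and Cd209a were at 0 in 11 of 12 libraries, Clec9a in 10 and Xcr1 in 4, and none of these exceeded 0.0440 FPKM. Over the 12 libraries the log2 levels of Ccl22 followed those of Cd83 (r = 0.964), Mrpl37 (0.962) and Fscn1 (0.961) most closely, a description over libraries that share media and replicate numbers. Activated T cells and B cells also express Cd83.

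Ccl17 moved between WT libraries, but not between KO libraries, as the macrophage and basophil markers did. The 11 monocyte or macrophage markers summed to 22.4, 29.7 and 24.1 FPKM in KO libraries 1, 2 and 3 with cytokines, against 107, 29.9 and 45.9 FPKM in WT libraries. At baseline the sums were 15.7, 21.7 and 17.6 FPKM in KO libraries, against 66.3, 20.7 and 24.9 FPKM in WT libraries. Lyz2 alone gave 11.8 to 93.5 FPKM of them and Cd68 2.60 to 5.97 FPKM. C1qb reached 1.92, Cd14 1.74, C1qc 1.11, Csf1r 0.892, Lyz1 0.807 and C1qa 0.441 FPKM, while Emr1, Fcgr1 and Mrc1 stayed at or below 0.176 FPKM. With cytokines the means of all 11 were lower in KO than in WT cells, and at baseline those of 8 (all but C1qa, C1qb and C1qc). Only 2 of the 11 were expressed enough to test. Of all tested genes, 57.0% stood lower in KO cells with cytokines and 52.5% at baseline. The 8 mast cell or basophil markers summed to 2.60, 2.15 and 2.66 FPKM in KO libraries with cytokines, against 8.60, 1.58 and 5.05 FPKM in WT libraries. At baseline they summed to 4.68, 2.78 and 2.64 FPKM in KO libraries, against 9.43, 3.31 and 5.42 FPKM in WT libraries. In both media WT library 1 was the highest and WT library 2 the lowest for Ccl17 and for both sums. The dendritic cell sum, without Ccl17, was instead lowest in WT library 1 in both media. It was 14.9, 24.1 and 28.8 FPKM in WT libraries 1, 2 and 3 with cytokines. In those at baseline it was 17.6, 40.9 and 37.3 FPKM. Among KO libraries Ccl17 was highest in library 1 with cytokines (5.32 FPKM) and in library 3 at baseline (10.0 FPKM). Among the same libraries the macrophage sum was highest in library 2 in both media. The basophil sum was highest in KO library 3 with cytokines and KO library 1 at baseline. The dendritic cell sum was highest in KO library 3 in both media. The part of these cells in the Ccl17 difference was not tested.

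**Figure D3:**
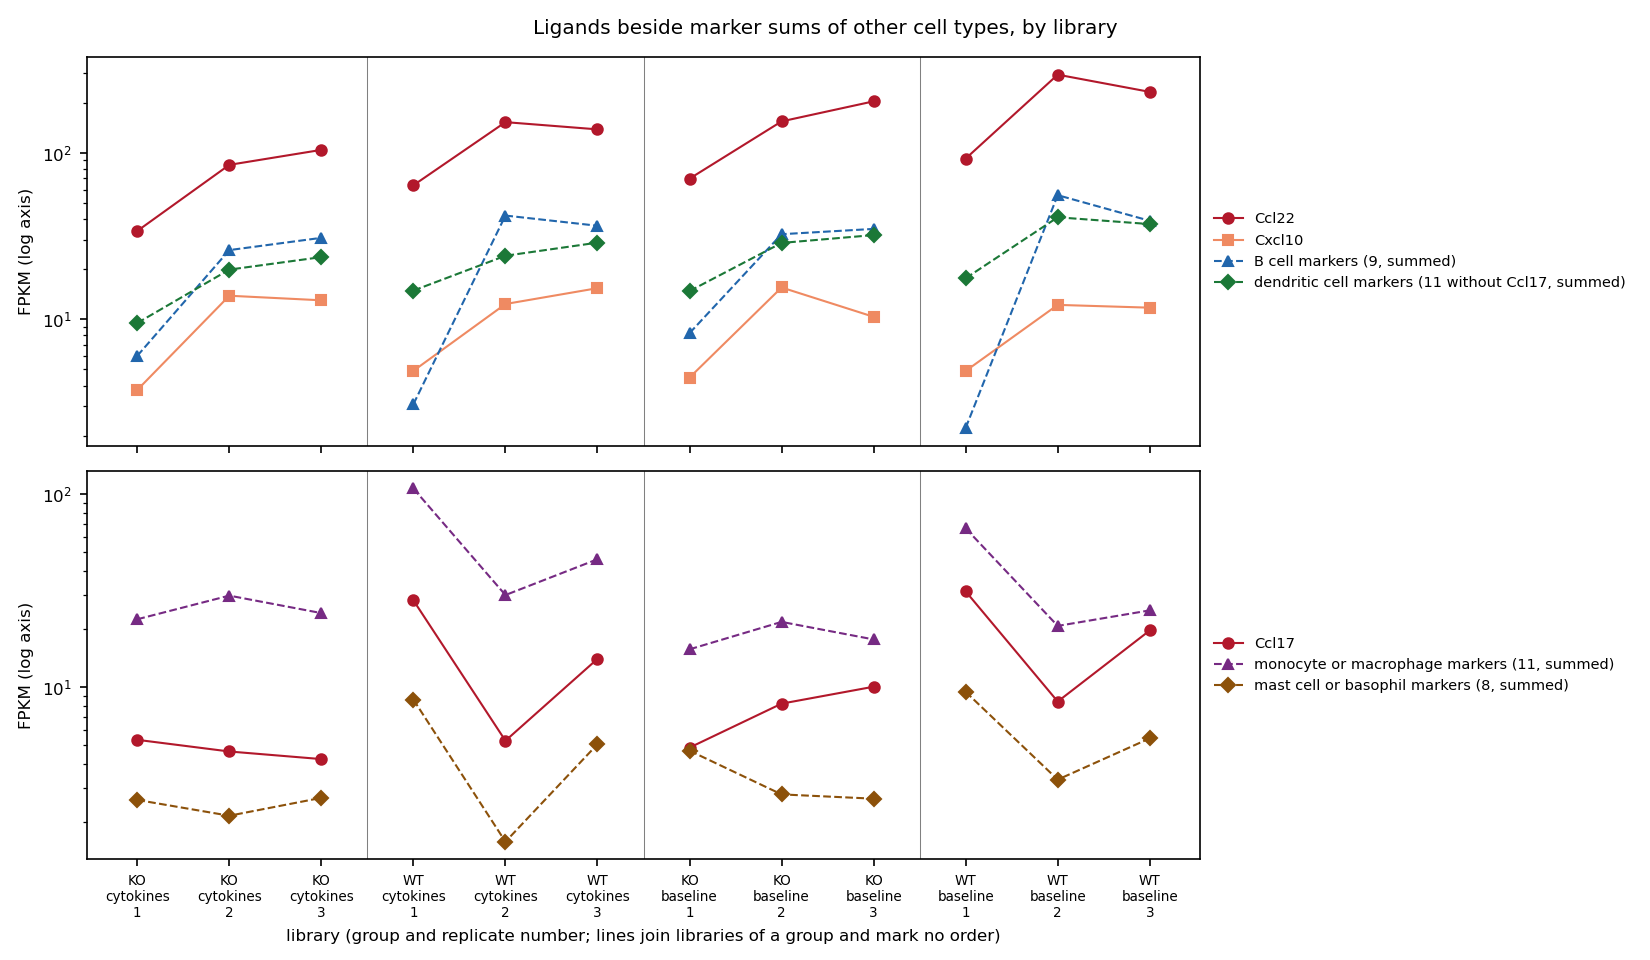
FPKM (log axis) by library for Ccl22 and Cxcl10 with the summed B cell and dendritic cell markers (top), and for Ccl17 with the summed monocyte or macrophage and mast cell or basophil markers (bottom). Library 1 was lowest of its group for Ccl22, Cxcl10 and both top sums, and in WT cells Ccl17 was high and low in the same libraries as both bottom sums.

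Neutrophil markers, read beside Cxcl3, whose receptor CXCR2 they include, summed to 1.01 to 18.1 FPKM in KO libraries with cytokines, 13.0 to 67.7 in WT libraries with cytokines, 1.21 to 6.07 in KO libraries at baseline and 5.41 to 21.0 in WT libraries at baseline. The library with the highest sum, WT cytokine library 3, had 3.37 FPKM of Cxcl3. Red cell markers reached 126 FPKM in KO cytokine library 3 and 193 FPKM in KO baseline library 3, the same libraries in which Cxcl3 was highest. In WT library 3 they summed to 26.0 FPKM with cytokines and 18.7 FPKM at baseline, beside 3.37 and 3.98 FPKM of Cxcl3. WT cytokine library 1 had 1.35 FPKM of them and 5.02 FPKM of Cxcl3. The part of red cells in the Cxcl3 values was not tested. For Xcl1, Ccl3, Ccl4 and Ccl5, which natural killer and CD8 T cells also make, 5 of the 6 NK markers stayed at or below 0.256 FPKM. Tyrobp, which myeloid cells share, reached 9.80 FPKM. The CD8 markers summed to 8.43 to 12.04 FPKM in KO libraries with cytokines, 9.37 to 14.7 in WT libraries with cytokines, 10.5 to 12.3 in KO libraries at baseline and 8.85 to 13.8 in WT libraries at baseline. Cd8b1 gave 7.49 to 12.2 FPKM of the sums and Cd8a 0.0673 to 2.52 FPKM, and neither passed between media. The part of these cells in the ligand values was not tested.

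Receptors of the ligands were read in the same cultures. Cxcr3, the receptor of Cxcl10, rose to 18.2 ± 2.16 FPKM in KO cells, against 11.4 ± 2.12 FPKM at baseline, and to 15.9 ± 1.41 FPKM in WT cells, against 9.39 ± 2.01 FPKM at baseline (SD, n = 3 each). Its log2 changes were 0.65 in KO cells (limma adjusted p = 0.0350) and 0.72 in WT cells (0.0214).

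Ccr4, the receptor of Ccl17 and Ccl22, averaged 16.1 FPKM in KO cells with cytokines, against 10.5 FPKM at baseline, and 17.3 FPKM in WT cells with cytokines, against 12.6 FPKM at baseline. It passed with the block (limma adjusted p = 0.0125 in KO cells and 0.0365 in WT cells; without it 0.0902 in KO cells and 0.188 in WT cells). Ccr8, the receptor of Ccl1, averaged 22.2 FPKM in KO cells with cytokines, against 22.8 FPKM at baseline. In WT cells it averaged 26.5 FPKM with cytokines, against 24.6 FPKM at baseline, and it did not pass while its ligand gene fell. Ccr6, the receptor of Ccl20, averaged 0.946 to 1.44 FPKM over the groups. Ccr1 averaged 0.320 to 0.842 FPKM, and Ccr3, Cxcr2 and Xcr1 did not exceed 0.0784 FPKM in any library.

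**Figure D4:**
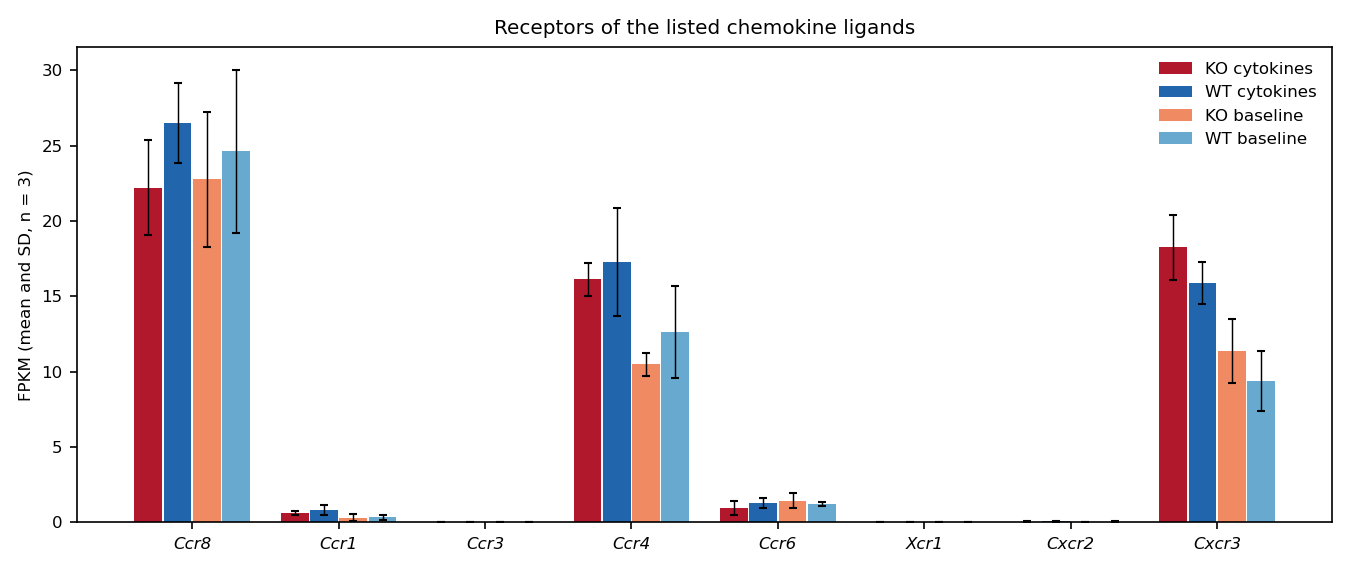
Mean FPKM (bars, with SD, n = 3) of 8 receptors of the listed ligands in the 4 groups. Cxcr3 stands higher with cytokines in both genotypes, Ccr8 and Ccr4 are the other receptors above 10 FPKM, and Ccr3, Xcr1 and Cxcr2 are close to 0.

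Of the 17 receptor genes counted, 10 were tested: 2 rose in KO cells (Cxcr3 and Cxcr1) and 1 in WT cells (Cxcr3), and 0 fell. Of all tested genes, 2.14% rose in KO cells and 2.65% in WT cells. Cxcr1, a neutrophil receptor, averaged 1.42 FPKM in KO cells with cytokines, against 0.101 FPKM at baseline (log2 change 1.10, limma adjusted p = 0.0253). In WT cells it averaged 1.40 FPKM with cytokines, against 0.240 FPKM at baseline (log2 change 0.89, limma adjusted p = 0.0566; 0.0177 with the block), and the test of the difference between genotypes gave 0.20 (unadjusted p = 0.563, adjusted p = 1.00). With the block 5 receptor genes rose and 1, Ccr7, fell in each genotype, where 4.74% of all tested genes rose and 5.98% fell in KO cells and 7.41% rose and 7.43% fell in WT cells. None of the 5 atypical receptor genes found was expressed enough to test.

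Genes of the signals that induce chemokines were lower with cytokines in part. Of 16 tested, 4 fell in KO cells (Lta, Irf1, Nfkb1 and Stat6) and 2 in WT cells (Lta and Irf1), and 0 rose, beside 2.12% of all tested genes lower in KO cells and 2.28% in WT cells. With the block 9 fell in KO cells and 8 in WT cells (5.98% and 7.43% of all tested genes), and 1, Nfatc2, rose in each. Irf1, an interferon-induced factor that acts on Cxcl10, fell to 103 ± 3.52 FPKM in KO cells, against 153 ± 9.35 FPKM at baseline, and to 101 ± 5.86 FPKM in WT cells, against 136 ± 8.82 FPKM at baseline (SD, n = 3 each). Its log2 changes were -0.57 (limma adjusted p = 0.000662) and -0.43 (0.00383). Lta, which encodes lymphotoxin, fell by 1.24 in KO cells (limma adjusted p = 0.000662) and 1.32 in WT cells (0.000481) on the log2 scale. Nfkb1 fell by 0.32 and Stat6 by 0.19 in KO cells (limma adjusted p = 0.0329 and 0.0461). In WT cells Nfkb1 changed by -0.23 and Stat6 by -0.12. Both WT changes passed with the block (limma adjusted p = 0.00938 and 0.047) but not without it (0.103 and 0.196). Ifng averaged 39.7 FPKM in KO cells with cytokines, against 77.7 FPKM at baseline, and 34.8 FPKM in WT cells with cytokines, against 70.6 FPKM at baseline. It passed with the block (limma adjusted p = 0.0142 in KO cells and 0.0188 in WT cells; without it 0.580 in KO cells and 0.517 in WT cells).

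Of 29 other chemokine ligand genes found, 10 were expressed enough to test, and 0 passed in any comparison in limma (at an unadjusted p under 0.05 stood 2 for cytokines in WT cells, where 18.5% of all tested genes did, 4 for genotype with cytokines, where 1.99% did, and 0 in the rest, where 1.11% to 15.3% did). With the block 1 passed: Cxcl2, like Cxcl3 a ligand of CXCR2, at 1.69 FPKM in WT cells with cytokines, against 0.374 FPKM at baseline (adjusted p = 0.0288). The others with a group mean of 1 FPKM or more were Ccl6, Ccl9, Ccl24, Ccl25, Ccl27a, Cxcl5, Cxcl9, Cxcl16 and Pf4, and their means did not exceed the 4.60 FPKM of Ccl6 in WT cells with cytokines. With cytokines 9 of the 10 tested stood lower in KO than in WT, as did 57.0% of all tested genes, with a median log2 difference of -0.33, beside -0.21 over the 9 tested listed ligands and -0.01 over all genes. Ccl24, an eosinophil attractant made by macrophages, had 0.595 to 0.765 FPKM in KO libraries with cytokines, against 1.03 to 5.79 FPKM in WT libraries (log2 difference -1.24, unadjusted p = 0.0137, limma adjusted p = 1.00). The macrophage marker sums above moved the same way, and their part was not tested.

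Among 6978 genes with a mean of 5 FPKM, the closest in pattern over the 12 libraries were sought for each ligand by Pearson correlation of log2 levels. Ccl3 and Ccl4 followed each other (r = 0.950), with Ccdc59 close to both (0.939 and 0.936), Tpm4 to Ccl3 (0.905) and Cinp to Ccl4 (0.966). Ccl1 followed Metap1d (0.947), Ms4a4c (0.941) and Crtam (0.939), and Xcl1 followed Bcl2a1d (0.975), Bcl2a1b (0.971) and Cdca7l (0.961). Bcl2a1d and Bcl2a1b are near-identical copies whose reads may be shared. Cxcl10 followed Syce2 (0.972), Ubfd1 (0.969) and Scpep1 (0.958), Cxcl3 followed Rnf10 (0.867), Plod3 (0.842) and Clptm1 (0.832), Ccl5 followed Pak1ip1 (0.889), Mrpl14 (0.868) and Armc10 (0.866), and Ccl17 followed Agtpbp1 (0.830), S100a4 (0.828) and Il4i1 (0.827). Between the listed ligands Ccl22 and Ccl17, separated by Cx3cl1 alone on chromosome 8, reached only 0.136, while Ccl22 with Xcl1 reached 0.774. All these correlations are descriptions over libraries that share media and replicate numbers.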

How the data were processed

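Each of the 12 libraries has its own deposited file of gene FPKM values, which the authors computed. The submitters' processing notes name STAR 2.4.0f1, SAMtools 0.1.19, Cufflinks and HTSeq, with mm9 as the build. No counts were used. Each file held 24488 entries for 23991 symbols, and the 755 entries of 258 repeated symbols were summed. Levels were taken as log2(FPKM + 1) without rescaling. Genes at 1 FPKM or more in at least 3 libraries (10126) were fitted as 4 group means over the 12 libraries with limma 3.58.1 in R 4.3.3 (variance trend, Benjamini-Hochberg over all tested genes, threshold 0.05). Figures were drawn with matplotlib 3.10.9. The code was tested on simulated data.

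Same-numbered libraries were compared on residuals. Correlations were 0.294 to 0.536 within genotype, 0.262 to 0.422 between genotypes with cytokines and 0.074 to 0.523 at baseline. Between libraries that shared neither genotype nor medium they were 0.087 to 0.448. Numbers were therefore read as pairing libraries except for the baseline genotype and interaction results. The main fit still has no block, and calls without a named block come from it. The blocked value is printed where it changes a call.

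The ligands, gene lists and markers were chosen with earlier results of these data known. The text names all 10 ligands, some of their receptors (others, 1 marker and 1 coding stretch are not reported here), other listed genes that passed or (other ligands) reached a group mean of 1 FPKM, and the 3 genes closest in pattern to each tested ligand. Ccr7, Ifng and Nfatc2 were named after their values were seen. Alternatives were another pseudocount (0.1), no filter, 2 rescalings, no trend, fewer groups, blocks, and libraries left out. Absolute depth is unknown, so no counting interval is given.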

Additional observations from a re-analysis of the deposited data

How the results depend on the processing

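Genes passing for the cytokine effect numbered 432 in KO cells and 499 in WT cells. With the replicate block they were 1086 and 1502, with the block within genotype 1193 and 1574, and with only the groups compared 275 in WT cells. Leaving out libraries gave 196 to 465 in KO cells and 164 to 536 in WT cells. Listed ligands passing (2 in each) were 1 in each with no filter, 1 in WT cells with only the groups compared, 4 in KO cells with the replicate block, 4 in each with the block within genotype, and, with libraries left out, 1 to 3 in KO cells and 0 to 2 in WT cells. With the 4 number 1 libraries left out, Ccl22 passed in KO (adjusted p = 0.0271) and WT cells (0.0283), and Ccl1 did not (0.0639 and 0.0884). Genotype with cytokines gave 0 to 2 genes and the interaction 0 to 1 with libraries left out; no listed ligand was among them. The block changed no ligand's genotype or interaction call.

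Signs that turned with libraries left out, none of a change that passed, had these log2 ranges. For cytokines in KO cells, Ccl3 ran -0.12 to 0.65, Cxcl3 -0.11 to 0.58 and Cxcl10 -0.46 to 0.52 (0.0001833 with median-ratio scaling). In WT cells, Ccl5 ran -0.043 to 0.21, Ccl17 -0.93 to 0.18 and Cxcl10 -0.25 to 0.57. For genotype with cytokines, Ccl1 ran -0.041 to 0.28, Ccl3 -0.55 to 0.12, Ccl4 -0.34 to 0.091 and Cxcl10 -0.57 to 0.41. At baseline, Ccl1 ran -0.22 to 0.43, Ccl3 -0.36 to 0.40, Ccl4 -0.49 to 0.22 and Cxcl10 -0.36 to 0.46. For the interaction, Ccl1 ran -0.31 to 0.33, Ccl3 -0.63 to 0.15, Ccl4 -0.38 to 0.34, Ccl17 -0.74 to 0.37, Ccl22 -0.65 to 0.29, Xcl1 -0.33 to 0.079, Cxcl3 -0.57 to 0.13 and Cxcl10 -0.59 to 0.39. Changes that kept their sign but moved by over 1.5 times ran as follows. For cytokines in KO cells, Ccl4 ran 0.092 to 0.81, Ccl17 -0.89 to -0.36 and Ccl22 -1.39 to -0.47. In WT cells, Ccl3 ran 0.27 to 0.68, Ccl4 0.17 to 0.62, Ccl22 -1.24 to -0.35 and Cxcl3 0.24 to 0.71. For genotype with cytokines, Ccl17 ran -1.87 to -0.76, Ccl22 -1.11 to -0.23, Xcl1 -0.55 to -0.14 and Cxcl3 0.086 to 0.56. At baseline, Ccl5 ran 0.0015 to 0.30, Ccl17 -1.62 to -0.47, Ccl22 -1.001 to -0.060, Xcl1 -0.37 to -0.037 and Cxcl3 0.18 to 0.88. The cause was not tested. The number of libraries and the unknown depth limit what low genes such as Ccl20 and Ccl1 can show.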
